A study of Mus musculus with 59 samples.

Results

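The luminal epithelium of the mouse uterus was compared between 2 genotypes on 2 days of early pregnancy, and the quantity described here is how the genotype difference changed from the first day to the other. It is the knockout minus control difference at day 3.5 post coitum (D3.5) less the same difference at day 0.5 (D0.5), called the genotype by day interaction. It was formed from 26 of the 59 libraries of the series, which are all those of luminal epithelium. Controls were Esr1f/- females, which carry 1 floxed and 1 null allele of Esr1, the gene of oestrogen receptor alpha. Knockouts were epiERa-/- females (Esr1f/- Wnt7aCre/+), in which a Cre driven by Wnt7a deletes the floxed allele in uterine epithelium. Both genotypes thus lack 1 Esr1 allele in every cell. At D0.5, 9 control mice and 7 knockout mice gave a library each. At D3.5 there were 4 and 6 of them, all different animals. Virgin females aged 2 to 6 months were mated with fertile males, the morning of the vaginal plug counted as D0.5, and littermates of a genotype were spread over the days. The epithelium was loosened for 30 min in 0.5% dispase and scraped out. An undigested piece of whole uterus from part of the same and some other mice gave 20 further libraries, used below for comparison.

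As background, the uterus of a mouse at D0.5 is under the preovulatory surge of oestrogen, and its luminal epithelium makes secretory, mucin and cornified-envelope proteins and divides. By D3.5 progesterone dominates, with a small rise of oestrogen just before implantation. Progesterone acting through its receptor in the epithelium induces Ihh, which signals to the stroma, and division of luminal cells stops. Oestrogen receptor alpha is a nuclear receptor that binds palindromes of the half-site GGTCA, and in the uterus it acts in both epithelium and stroma. An interaction above 0 means that the knockout stood higher relative to its control at D3.5 than at D0.5, whichever day carried the difference.

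Total estimated counts per luminal epithelium library ranged from 13.5 M to 80.3 M (median 19.3 M). Values per library are CPM (counts-per-million, on library sizes normalized by TMM). Differences are on the log2 scale. Their standard errors are the absolute difference divided by the square root of F from edgeR's quasi-likelihood test. In 3 of the 6 D3.5 knockouts, mice 35, 36 and 37, the mean log2(CPM + 0.05) of 18 oestrogen-responsive epithelial genes was 4.47 to 5.36. It was 2.23 to 2.88 in mice 31, 32 and 34 of the same group and 2.43 to 2.84 in the 4 controls. A list of 20 mitosis genes divided the group in the same way, with 4.77 to 5.86 in mice 35, 36 and 37 and 1.65 to 2.87 in the others. Where counts of calls moved clearly with these 3 mice, the values without them are given too. Control mouse 1 at D0.5 was low for cholesterol synthesis genes, at 4.37 against a group median of 6.44. In whole uterus, the library labelled knockout 33 at D3.5 held 212 CPM of Esr1, above the 135 to 194 CPM of the 5 controls of that day.

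Esr1 itself was measured first. At D0.5 it was 110 to 273 CPM in the 9 controls (median 208) and 34.8 to 62.9 CPM in the 7 knockouts (median 41.5). At D3.5 the 4 controls held 113, 104, 162 and 130 CPM, and the 6 knockouts 70.9, 73.2, 56.0, 52.8, 52.1 and 53.0 CPM. The genotypes did not overlap on either day. The deficit was 4.05-fold at D0.5 and 2.13-fold at D3.5, so that the interaction was 0.93 ± 0.30 (SE; adjusted p = 0.0318, edgeR's quasi-likelihood test with Benjamini-Hochberg adjustment over 15601 genes). That call was lost in 8 of 34 alternative settings, with adjusted p up to 0.0770. These are counts over the whole gene, and the deleted part was not counted apart. Pgr, the progesterone receptor, did not pass the test (interaction -0.13 ± 0.43; adjusted p = 0.886), with a median of 11.2 CPM in controls and 12.9 CPM in knockouts at D0.5. At D3.5 Pgr was 72.1 to 200 CPM in controls and 110 to 174 CPM in knockouts. Wnt7a, whose promoter drives the Cre, did not pass either (1.25 ± 0.65; adjusted p = 0.206).

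Across all genes, the genotype difference changed between the days for 2575 of 15601 genes (16.5%), with 1485 higher (9.52%) and 1090 lower (6.99%). The change was at least 2-fold for 2042 of them and at least 4-fold for 1120. The genotype difference itself was called for 3676 genes at D0.5 (23.6%; 1708 higher, 10.9%, and 1968 lower, 12.6%) and for 2105 at D3.5 (13.5%; 1215 higher, 7.79%, and 890 lower, 5.7%). The share of higher calls was 57.7% for the interaction and for the D3.5 difference. It was 80.0% and 90.1% in limma on log2(TPM + 1), where the median interaction over all genes was 0.36, and 52.4% and 45.4% in limma voom. At D0.5 the share was 46.5%, against 52.5% with median-of-ratios size factors and 52.0% in DESeq2. Which direction had more genotype calls on a day thus changed with the method. These comparisons share libraries. In controls, 1350 of the 1485 genes with a higher interaction fell from D0.5 to D3.5. Of these 1350, 603 fell less in the knockout and 747 had an estimated change of opposite sign there. The other 135 genes rose in controls and rose further in the knockout. Among the 1090 genes with a lower interaction, 846 rose in controls. Of these 846, 372 rose less in the knockout and 474 had an estimated change of opposite sign. The remaining 244 genes fell in controls and fell further in the knockout. For most called genes the estimated change over the 2 days was thus smaller or of opposite sign in the knockout. These directions are signs of estimates, with no test and no minimum size, so a knockout change near 0 can count as opposite. The control change was at least 2-fold for 935 of the 1350 and 543 of the 846 genes. These shares follow in part from how the contrast is built, since a large control change enters it directly. Without mice 35, 36 and 37 the count was 1814 (986 higher, 828 lower), and 1590 of these genes were also among the 2575.

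The called genes took several shapes. Among the 1485 higher ones, 316 were at least 2-fold lower in the knockout at D0.5 and within 2-fold at D3.5. Another 421 were within 2-fold at D0.5 and at least 2-fold higher at D3.5, and 207 were at least 2-fold lower at first and at least 2-fold higher later. A further 496 stayed within 2-fold on both days. Among the 1090 lower ones, 290 were at least 2-fold higher in the knockout at D0.5 alone, 250 at least 2-fold lower at D3.5 alone, and 166 went from higher to lower. Without mice 35, 36 and 37, 129 genes went from lower to higher and 161 from higher to lower.

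**Figure D1:**
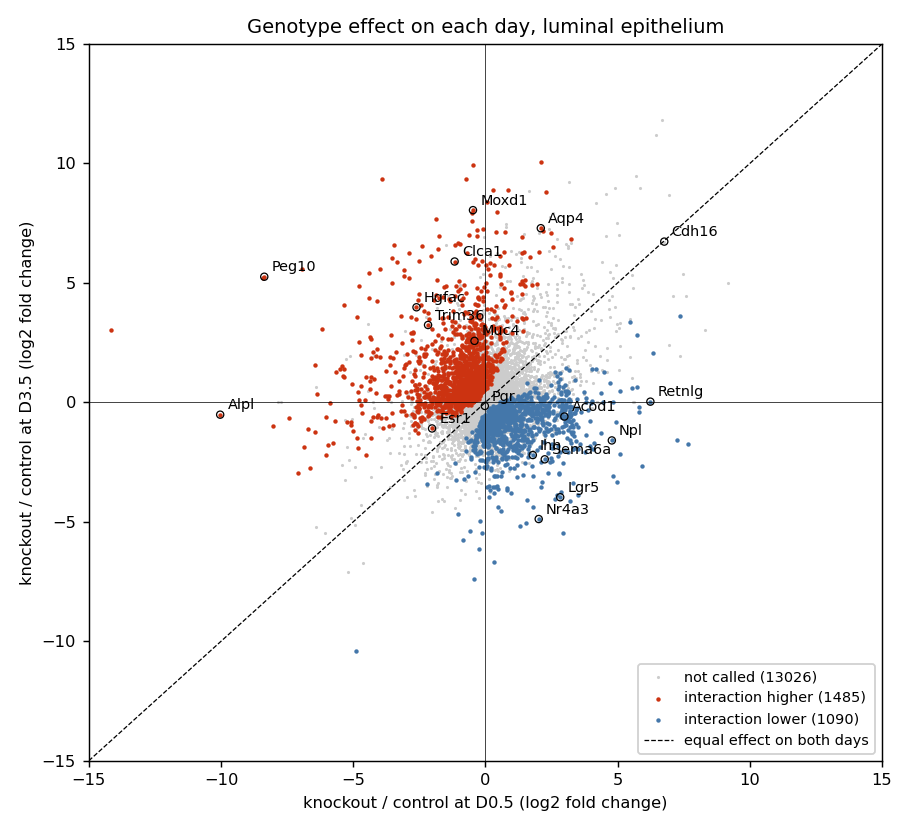
Log2 fold change of knockout over control at D0.5 (horizontal axis) and at D3.5 (vertical axis), 1 point per tested gene of luminal epithelium; colours mark the 1485 genes with a higher and the 1090 with a lower interaction, and the dashed line marks equal effects on both days. Peg10 and Hgfac lie in the upper left quadrant (lower at D0.5, higher at D3.5), Nr4a3 and Sema6a in the lower right, and Cdh16 on the line.

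Some genes had a wide genotype difference at D0.5. Alpl, tissue-nonspecific alkaline phosphatase, was 416 to 1487 CPM in the 9 controls at D0.5 (median 1232) and 0.572 to 1.66 CPM in the 7 knockouts. At D3.5 it was 7.50, 7.02, 7.37 and 15.5 CPM in controls and 2.63, 1.22, 1.07, 17.2, 11.1 and 5.89 CPM in knockouts. The groups were far apart on the first day and overlapped on the other, and the interaction was 9.52 ± 0.88 (adjusted p = 4.07e-08). The overlap came from knockout mice 35 and 36, at 17.2 and 11.1 CPM. The other knockouts, at 2.63, 1.22, 1.07 and 5.89 CPM, lay below all controls of that day. Without mice 35, 36 and 37 the Alpl interaction was 7.55. The early difference was 1048-fold. Sprr2a3, of the small proline-rich cornified-envelope family, was 144 to 789 CPM in D0.5 controls and 1.61 to 7.25 CPM in knockouts, while at D3.5 every library held under 5 CPM. Its interaction was 6.70 ± 0.91 (adjusted p = 1.28e-05), and 3.88 without mice 35, 36 and 37. The Sprr2 genes are near-identical neighbours, so the reads of single members are uncertain. Retnlg, a neutrophil gene, went the other way: 16.8 to 98.1 CPM in D0.5 knockouts against 0.0809 to 1.79 CPM in controls, and under 1 CPM in every D3.5 library (interaction -6.21 ± 1.10; adjusted p = 0.000278). Orm1, an acute-phase plasma protein, was also higher in D0.5 knockouts (2.22 to 48.0 CPM against 0.130 to 1.93). Its interaction was -7.23 ± 0.93 (adjusted p = 5.70e-06). An interaction takes in both days, so by itself it gives neither the size nor the sign of the D3.5 difference of Orm1.

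Other genes gained or widened their difference at D3.5. Moxd1, a monooxygenase related to dopamine beta-hydroxylase, was 0.0872, 0.229, 0 and 0 CPM in the 4 D3.5 controls and 5.81, 5.44, 1.78, 33.7, 66.5 and 31.4 CPM in the 6 knockouts. At D0.5 its groups overlapped, with medians of 5.85 and 2.60 CPM, and the interaction was 8.52 ± 1.23 (adjusted p = 2.43e-05). Mice 35, 36 and 37 held the 3 upper values, and without them the interaction was 6.06. Clca1, a secreted regulator of chloride channels and mucus, fell in controls from a median of 10725 CPM to 6.28, 9.17, 3.50 and 3.79 CPM. In D3.5 knockouts it was 71.4, 43.5, 22.2, 678, 919 and 308 CPM, so that all 6 stood above all 4 controls (interaction 7.06 ± 0.96; adjusted p = 1.30e-05; 4.17 without mice 35, 36 and 37). Aqp4, a water channel, was already higher in the knockout at D0.5, with 42.5 to 478 CPM (median 201) against 25.3 to 79.0 CPM in controls (effect 2.09). At D3.5 it was under 2 CPM in the 4 controls and 63.1 to 175 CPM in the 6 knockouts (effect 7.29), and its interaction was 5.20 ± 0.72 (adjusted p = 1.48e-05). For Aqp4 the 3 mice did not stand apart, and the value without them was 5.03. Col28a1, a collagen, was 31.7, 15.9, 44.5 and 93.6 CPM in D3.5 controls and 0.109 to 4.89 CPM in knockouts, from at most 1.12 CPM in every D0.5 library.

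In 26 genes (0.167% of those tested) the genotype effect turned round, with at least 2-fold effects of opposite sign, no overlap between genotypes on either day and a called interaction. Of these, 15 were lower in the knockout at D0.5 and higher at D3.5, and 11 the reverse. They were chosen on these values, which are therefore a description. Genotypes did not overlap at D0.5 for 980 genes (6.28%), at D3.5 for 1563 (10%) and on both days for 163 (1.04%). All 26 were still called without mice 35, 36 and 37, and 22 of them still had opposite effects of at least 2-fold; the exceptions, Pik3ap1, Plch2, Iffo2 and Gramd1a, were under 2-fold at D3.5. Since these genes were required not to overlap in the full data, that count is no independent support.

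Peg10, an imprinted gene of retrotransposon origin, had the widest turn among the 8 named. At D0.5 it was 771 to 3943 CPM in controls (median 1886) and 2.15 to 25.5 CPM in knockouts (median 3.77). At D3.5 the controls held 1.09, 4.68, 2.03 and 3.26 CPM and the knockouts 23.9, 19.5, 8.96, 194, 314 and 73.4 CPM. It thus fell from D0.5 to D3.5 in controls and rose in knockouts, and the interaction was 13.62 ± 1.46 (adjusted p = 4.85e-07; 11.05 without mice 35, 36 and 37). Crabp2, which carries retinoic acid to the nucleus, was 6.97 to 22.2 CPM in D0.5 controls against 0.519 to 2.58 CPM in knockouts. At D3.5 Crabp2 was 0.436, 0.183, 0.368 and 0 CPM in controls and 1.74, 2.21, 1.07, 21.2, 24.1 and 13.0 CPM in knockouts, with mice 35, 36 and 37 again highest (interaction 8.38 ± 1.07; 5.74 without them).

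Hgfac, the serine protease that activates hepatocyte growth factor, turned round in all 6 D3.5 knockouts. It was 270 to 577 CPM in D0.5 controls and 43.9 to 83.6 CPM in knockouts. In D3.5 controls it was 0.567, 0.275, 0 and 0.759 CPM, and in knockouts 2.93, 3.47, 9.67, 6.59, 5.79 and 7.64 CPM. Both genotypes fell, the knockout from a lower start to a higher end (interaction 6.59 ± 0.56; adjusted p = 1.19e-08). Trim36, a RING-finger ubiquitin ligase, went from 5.71 to 17.9 CPM in D0.5 controls to 0.349, 0.688, 0.737 and 0.380 CPM at D3.5. The knockout was at 1.78 to 3.99 CPM at D0.5 and at 2.50, 5.33, 6.77, 6.59, 6.06 and 3.80 CPM at D3.5 (interaction 5.41 ± 0.47; adjusted p = 1.25e-08). The anion exchanger gene Slc26a9 and Slc16a14, of the monocarboxylate transporter family, had the same form as Hgfac, with interactions of 4.27 ± 0.55 and 5.08 ± 0.43.

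Sema6a and Nr4a3 turned the other way. Sema6a, a transmembrane semaphorin, was 4.65 to 16.4 CPM in D0.5 controls and 31.6 to 48.3 CPM in knockouts. At D3.5 it was 162, 195, 266 and 420 CPM in controls and 71.5, 77.7, 45.6, 27.5, 11.2 and 65.9 CPM in knockouts (interaction -4.63 ± 0.53; adjusted p = 1.04e-06). The knockout median rose from 37.0 to 55.8 CPM, while that of the controls rose from 6.23 to 230.4 CPM. Nr4a3, an orphan nuclear receptor of the immediate early class, was 0.824 to 6.52 CPM in D0.5 controls and 6.72 to 16.4 CPM in knockouts. At D3.5 Nr4a3 was 33.4, 7.80, 90.3 and 53.9 CPM in controls and 0.713 to 2.57 CPM in knockouts, with an interaction of -6.90 ± 0.72 (adjusted p = 3.52e-07). One control, mouse 14, was near the knockout range of the earlier day.

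**Figure D2:**
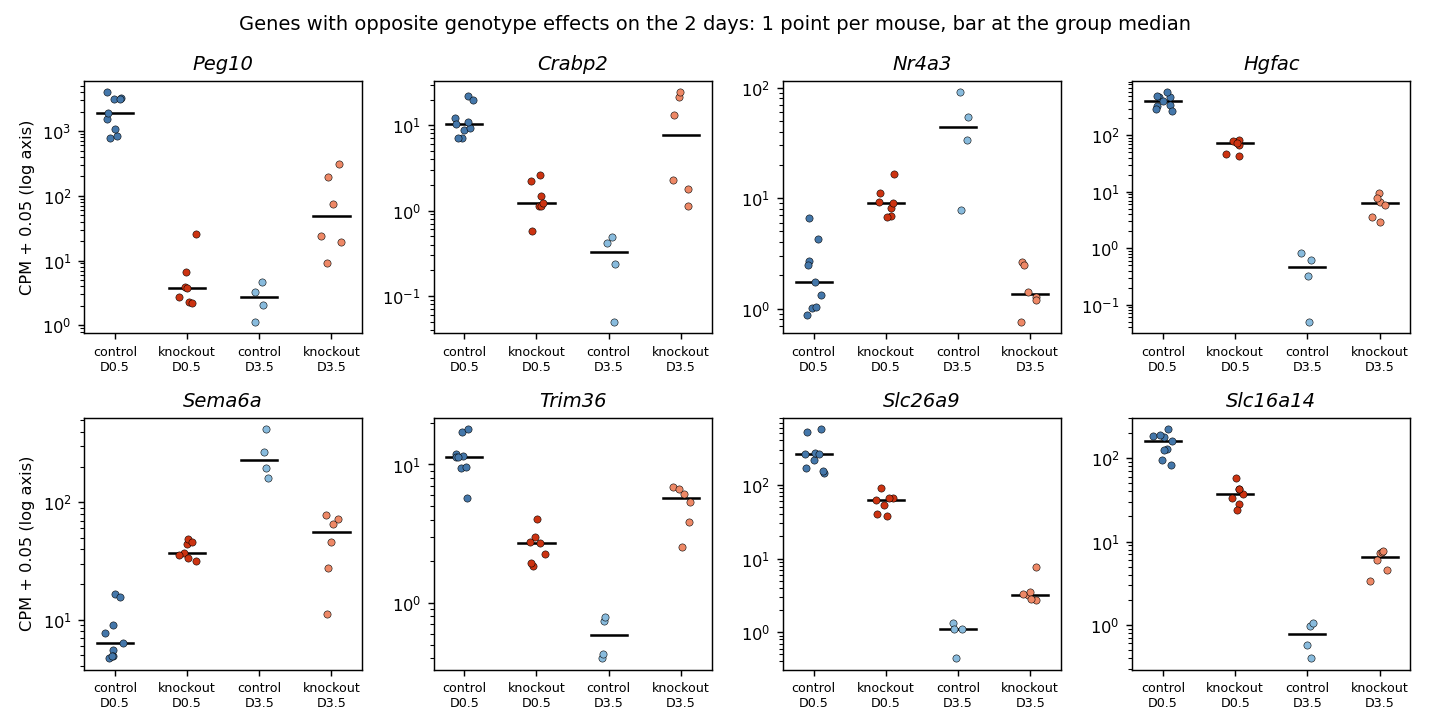
CPM + 0.05 on a log axis for the 8 named genes with opposite genotype effects, 1 point per mouse in each of the 4 groups and a bar at the group median. The knockout lies wholly on one side of its control at D0.5 and wholly on the other at D3.5 in each panel; in Peg10 and Crabp2 the 3 upper D3.5 knockouts are mice 35, 36 and 37.

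Promoters are shown for Alpl, which had the widest early deficit among the named genes, Hgfac, which turned round, and Ihh, which fell short at D3.5. RefSeq promoters on build GRCm38.p6 were found for 60 of the 79 named genes. Each window is the 250 bases before a start site, 5′ to 3′ along the gene, with the oestrogen receptor half-site GGTCA, on either strand (TGACC on the other), in capitals.
Alpl, chr4:137766476-137766725, minus strand: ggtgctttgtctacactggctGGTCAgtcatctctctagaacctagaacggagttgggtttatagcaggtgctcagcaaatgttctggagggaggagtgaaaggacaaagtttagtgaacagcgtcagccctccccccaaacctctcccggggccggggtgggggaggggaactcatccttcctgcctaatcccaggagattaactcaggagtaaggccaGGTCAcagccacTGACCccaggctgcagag
Hgfac, chr5:35041259-35041508, plus strand: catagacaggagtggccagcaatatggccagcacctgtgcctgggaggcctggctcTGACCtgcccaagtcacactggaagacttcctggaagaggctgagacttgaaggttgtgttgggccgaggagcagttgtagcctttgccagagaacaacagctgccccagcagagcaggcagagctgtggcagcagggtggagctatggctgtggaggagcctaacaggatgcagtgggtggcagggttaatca
Ihh, chr1:74951673-74951922, minus strand: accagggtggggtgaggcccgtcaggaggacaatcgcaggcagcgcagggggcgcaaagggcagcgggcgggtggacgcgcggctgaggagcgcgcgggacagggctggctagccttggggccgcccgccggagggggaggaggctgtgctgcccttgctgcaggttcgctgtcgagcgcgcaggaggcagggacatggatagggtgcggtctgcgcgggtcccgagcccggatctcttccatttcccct
The half-site occurred 3 times in this window of Alpl, which has another start site in the table with 1 match, once in Hgfac and not in Ihh. It was present in 35.2% of all 32851 promoters of the table, in 33.7% of 15510 promoters of tested genes, in 34.6% of 1523 promoters of genes with a higher interaction and in 33.3% of 1128 promoters of genes with a lower one. Matches to the full oestrogen response element, in which GGTCA is followed by any 3 bases and then TGACC and which thus contains the half-site, were found in 0.0639% of all promoters, 0.0129% of those of tested genes and none of those of called genes. The core ACANNNTGT of the progesterone response element, which reads the same on both strands, was in 5.84% of all promoters, 4.20% of those of tested genes, 4.27% of the higher and 4.52% of the lower set. These windows are short, and a match describes letters, not binding.

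Of 18 oestrogen-responsive epithelial genes, 13 had a higher interaction and 0 a lower one (9.52% and 6.99% of all genes), with a median of 3.98 against 0.01 over all genes. The same shares, 16.5% in either direction, are to be set beside the interaction counts of every list below. Counts near them are no result about the members of a list. For the oestrogen-responsive list the median genotype effect went from -1.60 at D0.5 to 1.59 at D3.5. This list was drawn up with earlier results of these data known, and many of its members mark the oestrogen peak. Beside Clca1 and Sprr2a3 it includes Greb1, a receptor cofactor (4.07), Sprr2f, of the cornified-envelope family (5.64), and Ltf, which encodes the iron-binding secretory protein lactoferrin (5.74 ± 1.10). Ltf was 102, 43.1, 25.9 and 86.4 CPM in D3.5 controls and 153, 62.5 and 136 CPM in knockout mice 31, 32 and 34, but 3728, 5714 and 1887 CPM in mice 35, 36 and 37. Without those 3 mice its interaction was 1.68 (adjusted p = 0.0355), the list had 9 higher and 1 lower call, and its median was 1.87. Sprr2d changed sign, from 8.08 to -0.85 (adjusted p = 0.847).

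Of 5 mucin genes, 4 were higher and 0 lower (median 2.99). Their median genotype effect was -0.41 at D0.5 and 2.57 at D3.5. Muc1 and Muc4 are also on the oestrogen-responsive list. Muc4, a membrane mucin of the luminal surface, fell in controls from a median of 5772 CPM to 3.36, 13.1, 22.9 and 24.5 CPM. The 6 D3.5 knockouts held 58.5, 73.3, 95.7, 142, 122 and 77.4 CPM, all above the controls, while the genotypes overlapped at D0.5 (interaction 2.99 ± 0.51; adjusted p = 0.000170). Muc20, another membrane mucin, had an interaction of 5.31 ± 0.74. Without mice 35, 36 and 37, 2 of the 5 were called higher, Muc4 at 2.66 and Muc20 at 3.67 among the named genes.

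Cholesterol synthesis genes had most of their genotype calls at D0.5. Of 20 genes, 15 had a higher interaction and 0 a lower one, with a median of 1.95. At D0.5, 19 of the 20 were called lower in the knockout (12.6% of all genes) and the median effect was -2.12. At D3.5, 2 were called lower and 0 higher (5.7% and 7.79% of all genes), and the median effect was 0.16. Nsdhl, a sterol dehydrogenase of the pathway, was 6.72 to 74.6 CPM in D0.5 controls (median 34.2) and 5.19 to 16.3 CPM in knockouts. At D3.5 Nsdhl was 9.02, 9.26, 5.94 and 8.96 CPM in controls, 9.84, 10.9 and 8.86 CPM in knockout mice 31, 32 and 34, and 15.7, 12.7 and 15.5 CPM in mice 35, 36 and 37. The genotypes overlapped on both days, and the interaction was 2.79 ± 0.55 (adjusted p = 0.000777). Without those 3 mice Nsdhl was at 2.48 and 6 of the 20 genes were called, all higher, with a median of 1.43. Sqle, Idi1 and Mvk, which act along the pathway, had interactions of 4.42, 4.59 and 3.19. Pmvk and Dhcr7 did not pass, at 0.49 and 0.37, and were lower in the knockout on both days (effects of -2.63 and -2.14 for Pmvk, -2.29 and -1.92 for Dhcr7). Of 12 genes of sterol uptake and control, 3 were higher, Insig1 and Stard4 among them, and 1 lower. Insig1 was the 1 higher call left without mice 35, 36 and 37, with Stard4 at 1.27 (adjusted p = 0.199). The lower call was Abca1, the cholesterol exporter, whose knockout effect went from 1.46 to -1.43.

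**Figure D3:**
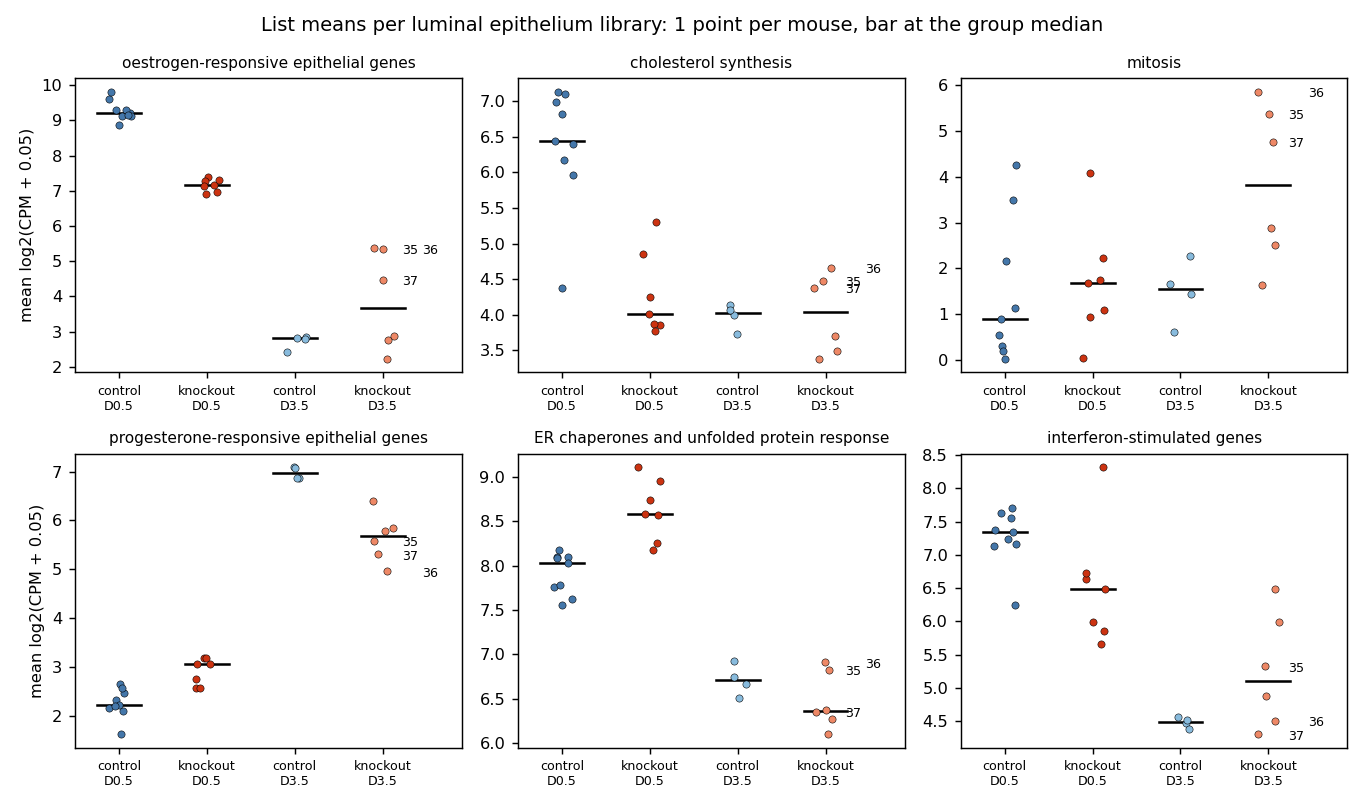
Mean log2(CPM + 0.05) of 6 gene lists in each luminal epithelium library, 1 point per mouse and a bar at the group median; numbers mark knockout mice 35, 36 and 37 at D3.5. These 3 lie above the other D3.5 knockouts for oestrogen-responsive, mitosis and cholesterol synthesis genes, and below them for progesterone-responsive genes.

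Progesterone-responsive epithelial genes had 5 lower and 1 higher call among 12, with a median of -2.60. The median genotype effect was 0.61 at D0.5 and -1.41 at D3.5. Ihh, the hedgehog ligand, was at most 1.00 CPM in every D0.5 library. At D3.5 Ihh was 318, 236, 453 and 369 CPM in controls and 65.1, 58.8, 131, 79.6, 44.7 and 69.0 CPM in knockouts, without overlap (interaction -4.00 ± 0.65; adjusted p = 0.000108). Acod1, the itaconate-producing enzyme, differed at the other end. It was 25.7 to 237 CPM in D0.5 controls and 267 to 1126 CPM in knockouts, and at D3.5 the groups overlapped at 375 to 571 and 196 to 433 CPM (interaction -3.58 ± 0.56; adjusted p = 6.34e-05). Fst, the activin antagonist follistatin, Lrp2, an endocytic receptor, and Hdc, which makes histamine, were the other lower calls, at -3.06, -2.94 and -2.33. Gata2, a transcription factor upstream of the progesterone receptor, was the higher call (0.85). Without mice 35, 36 and 37 the counts were 4 lower and 1 higher, with Ihh at -3.84 and Fst no longer called (-2.76). The receptor gene Pgr, as given above, did not pass.

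In the signalling of LIF through gp130, which prepares the epithelium for attachment, 4 of 11 genes were lower and 1 was higher. Socs3, the feedback inhibitor, was 38.8 to 194 CPM in D0.5 controls and 163 to 247 CPM in knockouts. At D3.5 it was 102, 60.7, 153 and 86.4 CPM in controls and 27.3, 29.7, 6.36, 26.4, 28.0 and 22.7 CPM in knockouts (interaction -3.34 ± 0.45; adjusted p = 1.10e-05). The D3.5 groups did not overlap. The kinase gene Jak1 (-1.37 ± 0.21) and Stat3, the transcription factor of the pathway (-1.21 ± 0.26), were lower in interaction too, as was Bcl3 (-2.79), while the receptor gene Lifr was higher (1.80). The 4 lower calls were still made without mice 35, 36 and 37, but Lifr was not called (1.54; adjusted p = 0.0776). The ligand Lif did not pass, at 1.11 (adjusted p = 0.53). Of 21 immediate early genes, 3 were lower, including Socs3 and Junb (-1.42 ± 0.34), and 2 were higher, Klf4 and Klf6. Of all genes 6.99% were lower and 9.52% higher.

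Among 12 transcription factor genes of receptivity, 3 were higher and 1 lower. Msx2, a homeobox gene, was 2.70, 5.96, 1.84 and 1.75 CPM in D3.5 controls and 11.4, 14.4, 6.62, 54.2, 83.3 and 46.1 CPM in knockouts, from overlapping levels at D0.5. Its interaction was 3.30 ± 0.69 (adjusted p = 0.00145), and without mice 35, 36 and 37 it was 1.57 (adjusted p = 0.0540). Klf5 (0.90) and Gata2 were the other higher calls and Stat3 the lower one. In the EGF family, Btc and Tgfa, which encode receptor ligands, were called higher among 10 genes (2.73 ± 0.54 and 1.28 ± 0.30). That count is near the share of all genes called in either direction, 16.5%. Areg, the ligand induced by progesterone, did not pass (-1.20; adjusted p = 0.44).

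Of 19 Wnt pathway genes 5 were higher and 3 lower. Lgr5, a receptor for R-spondin, was 0.207 to 4.04 CPM in D0.5 controls and 1.93 to 19.6 CPM in knockouts. At D3.5 Lgr5 was 15.2 to 213 CPM in the 4 controls and 4.92, 5.52, 0.865, 6.55, 13.1 and 8.26 CPM in knockouts, so that the genotypes separated on the later day (interaction -6.80 ± 0.91; adjusted p = 9.10e-06). Rspo3, an R-spondin, and Lgr4 were the other lower calls (-1.84 and -1.02). Higher calls were Wnt4 (2.33), Wnt7b (1.38), the receptor-degrading ligases Rnf43 (1.51) and Znrf3 (1.33), and Sp5, a transcription factor that is a Wnt target. Sp5 had no count in the 4 D3.5 controls and 0.473 to 3.55 CPM in the 6 knockouts, a mean at least 47.1-fold higher against 3 counts over the control group. The Wnt list had 3 higher and 2 lower calls without mice 35, 36 and 37, and those of Wnt4 (0.98), Wnt7b (0.64) and Lgr4 (-0.95) were lost.

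Chaperones of the endoplasmic reticulum and the unfolded protein response had 10 lower and 0 higher calls among 20, with a median of -0.90. At D0.5, 12 of the 20 were called higher in the knockout (10.9% of all genes) and 0 lower, with a median effect of 0.78. At D3.5, 0 were called higher and 1 lower (7.79% and 5.7% of all genes), with a median of -0.17. The mean log2(CPM + 0.05) of the list at D3.5 was 6.51 to 6.93 in controls. It was 6.10 to 6.37 in mice 31, 32 and 34, below all controls, and 6.35 to 6.91 in mice 35, 36 and 37. Creld2, a chaperone cofactor, was 61.1 to 87.0 CPM in D0.5 controls and 123 to 365 CPM in knockouts. At D3.5 Creld2 was 44.3, 39.2, 35.8 and 40.2 CPM in controls and 25.4, 19.4, 28.4, 42.7, 43.4 and 31.3 CPM in knockouts (interaction -1.86 ± 0.31; adjusted p = 0.000114). Hyou1 and Hsp90b1, both chaperones, were at -1.97 and -1.72. Without mice 35, 36 and 37 there were 9 lower calls.

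DNA replication genes had 8 higher and 0 lower calls of 22, and mitosis genes 3 and 0 of 20, with medians of 1.31 and 2.99. Both moved with single mice. Uhrf1, which maintains DNA methylation at replication, was 5.58, 5.09, 5.30 and 5.46 CPM in D3.5 controls, 14.8, 11.8 and 8.86 CPM in knockout mice 31, 32 and 34, and 62.1, 95.5 and 35.6 CPM in mice 35, 36 and 37 (interaction 2.95 ± 0.71; 1.27 without them, adjusted p = 0.147). Ccnb2, cyclin B2, was 42.1, 59.8 and 30.9 CPM in those 3 mice and 3.82 to 5.17 CPM in the other 3. Without the 3 mice the counts were 0 higher and 2 lower for replication and 0 either way for mitosis, where edgeR gave 1 gene an unadjusted p under 0.05. With all libraries 17 of the 20 mitosis genes had one, against 4522 of all 15601 genes. DESeq2 called 12 of the 20, against 3139 of 15597 genes. Leaving out 1 library gave 0 mitosis calls (without control 15, control 16 or knockout 36 of D3.5) to 14 (without D0.5 knockout 27), and 4 replication calls without control 14, control 15 or knockout 36 of D3.5. At D0.5 the mitosis list spanned 0.03 to 4.25 among controls and 0.05 to 4.09 among knockouts, and its median effect was -0.02.

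Interferon-stimulated genes had 6 higher and 0 lower calls of 16 (median 1.46), 8 without mice 35, 36 and 37, 3 without D3.5 control 16 or knockout 34, and 13 without D0.5 knockout 21. Oasl2, an oligoadenylate synthetase-like protein, was 142 to 245 CPM in D0.5 controls and 68.0 to 276 CPM in knockouts, and at D3.5 27.9 to 53.9 and 48.4 to 230 CPM (interaction 2.03 ± 0.49; adjusted p = 0.00487). Among 20 cell junction genes 8 were higher and 0 lower, and 7 were higher without mice 35, 36 and 37, Pkp3 losing its call. The 8 included the desmosome genes Dsp, Jup, Dsg2, Dsc2 and Pkp3 and the connexins Gjb2 and Gja1. Dsp, desmoplakin, was 286 to 496 CPM in D0.5 controls and 180 to 296 CPM in knockouts, and 153 to 269 against 342 to 383 CPM at D3.5, so that the order turned (interaction 1.48 ± 0.21; adjusted p = 1.66e-05). Of 18 water and ion transport genes 4 were higher (Aqp4, Aqp5, Cftr and Slc26a9) and 5 lower (among them Slc26a6, Aqp9, Slc12a2 and Atp1b1). Aqp5 and Slc12a2 were not called without mice 35, 36 and 37. The steroid receptor list had 2 higher of 7, Esr1 and Gper1, and 0 to 2 calls over the 34 alternatives. Gper1 passed narrowly (1.72 ± 0.60; adjusted p = 0.0499) and lost its call in 24 of them. Mucosal defence had 2 higher and 3 lower calls of 13, the prostaglandin pathway 2 and 3 of 14, and chemokines and cytokines 3 and 2 of 19. Leaving out mice 35, 36 and 37 gave 1 and 5 for defence, 2 and 2 for prostaglandins, and 1 and 4 for chemokines, so that the balance of chemokine calls turned to lower. The median of the defence list was -0.18 with these mice and -1.37 without them. The retinoic acid pathway had 1 higher call of 13, which was Crabp2, against 9.52% of all genes.

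**Figure D4:**
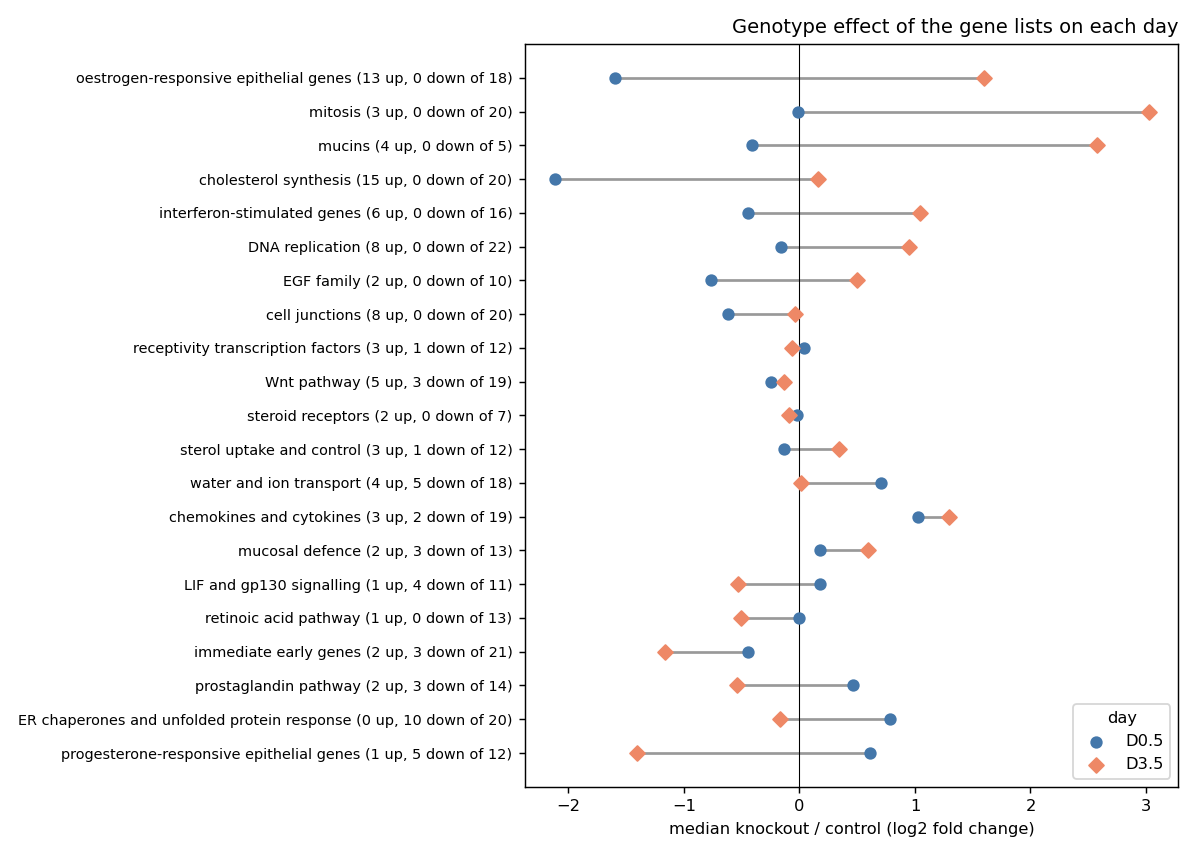
Median log2 fold change of knockout over control for 21 gene lists at D0.5 (circles) and D3.5 (diamonds), with the number of members called higher or lower in the interaction out of those tested. The medians of oestrogen-responsive genes crossed 0 from -1.60 to 1.59 and those of progesterone-responsive genes from 0.61 to -1.41, while cholesterol synthesis moved from -2.12 to 0.16.

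For contrast, 77 genes had effects called in the same direction on both days, of at least 2-fold and without overlap, 39 higher and 38 lower in the knockout. The 6 with the smallest interactions were picked for that, so their values are a description. Their intervals are uncertain, since near 0 the standard error is a ratio of 2 small values. Slc25a1, the mitochondrial citrate carrier, was lower by 2.13-fold at D0.5 and 2.05-fold at D3.5, with an interaction of 0.05 (95% interval -0.39 to 0.49). Cdh16, a cadherin, was 109-fold higher at D0.5 and 106-fold higher at D3.5, but the interval of its interaction ran from -3.17 to 3.10. A change of Cdh16 between the days was thus poorly bounded. Over 34 alternative settings its interaction was -0.73 to 0.28 and was not called. S100a1, a calcium-binding protein, the carbonic anhydrase gene Car13 and Ldhb, a lactate dehydrogenase subunit, were higher on both days (3.07- and 2.93-fold, 2.83- and 2.98-fold, 3.39- and 3.32-fold). Ly6g was lower by 4.80- and 4.98-fold.

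Epithelial identity and other cell types were followed in the same libraries. Of 15 general epithelial markers 6 were higher in interaction and 0 lower (median 0.66), and 4 were higher without mice 35, 36 and 37. Krt19, a keratin, was 998 to 3474 CPM in D0.5 controls and 388 to 782 CPM in knockouts, and 298 to 702 against 640 to 1344 CPM at D3.5 (2.81 ± 0.44; adjusted p = 6.34e-05). Epcam (0.07) and Cdh1 (-0.01), which encode adhesion proteins, did not pass. Of 4 luminal markers 1 was higher and 1 lower, Lpar3, the lysophosphatidic acid receptor of receptive epithelium (-1.46 ± 0.31). In such bulk libraries fewer cells of a type and less RNA per cell cannot be told apart.

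Neutrophil markers had 4 lower and 0 higher calls of 10. Their mean log2(CPM + 0.05) was 4.53 to 6.53 in D0.5 knockouts, above the -1.78 to 3.45 of controls, and -2.64 to -1.57 in D3.5 controls and -2.26 to -0.32 in D3.5 knockouts, where Mmp8 had no count in 5 of 6 libraries. The Mmp8 call was lost without D3.5 control 14 (-3.95; adjusted p = 0.963). Ly6g, itself on that list, did not follow the others, being lower in the knockout on both days. Erythroid markers had 3 lower calls of 5 and stromal markers 1 of 12, and neither list had a call in edgeR without mice 35, 36 and 37, with 3 and 1 genes at an unadjusted p under 0.05. The erythroid calls were also lost without D0.5 knockout 22 or 23, D3.5 control 11, or D3.5 knockout 35 or 36 alone. Lymphoid markers had 1 lower call of 10, Cd79a, which was lost without mice 35, 36 and 37 (-3.03; adjusted p = 0.0843). Summed stromal markers were 597 to 6461 CPM in D0.5 controls, 958 to 4766 in D0.5 knockouts, 1748 to 4785 in D3.5 controls and 817 to 3271 in D3.5 knockouts. Macrophage markers had 1 higher call, Cd68, and 1 lower, Lyz2, of 10. The Lyz2 call was lost in 14 of 34 alternatives. Leaving out mice 35, 36 and 37, the macrophage list had 1 higher and 4 lower calls, with the complement genes C1qa, C1qb and C1qc now lower (-2.63, -2.59 and -2.94), and its median went from -1.39 to -2.03. Gland markers were higher in the knockout on both days, with median effects of 3.67 at D0.5 and 3.28 at D3.5. On each day 3 of the 5 tested, out of 7 listed, were called higher (10.9% of all genes at D0.5 and 7.79% at D3.5). Smooth muscle, endothelial and gland markers had interaction calls in 0 of 8, 8 and 5 genes, in either direction, by edgeR or DESeq2. In edgeR 0, 0 and 2 of them had an unadjusted p under 0.05, as had 4522 of all 15601 genes. Sox9, a gland marker, was called lower without mice 35, 36 and 37 (-1.38; adjusted p = 0.0422). The part of these cells in the interaction was not tested beyond a fit with the stromal score as a covariate, in which 2432 genes were called (2101 of them among the 2575).

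In whole uterus the same contrast called 232 of 16232 genes (1.43%), 153 higher (0.943%) and 79 lower (0.487%), and 294 without the library labelled knockout 33. Whole uterus had fewer libraries (20) and holds stroma and muscle, so counts are not compared across tissues. The difference between tissues was tested instead, in a fit of both, and was called for 250 of 16665 genes (1.5%), 128 higher (0.768%) and 122 lower (0.732%) in luminal epithelium. Of these calls 51.2% were higher, against 71.6% on log2(TPM + 1). Trim36 was among them, at 4.67 ± 0.65 (adjusted p = 2.95e-05): in whole uterus its D3.5 groups overlapped, with 4.86 to 7.81 CPM in controls and 3.75 to 7.16 CPM in knockouts. Hgfac differed by 3.39 ± 0.83 and Sema6a by -3.56 ± 0.67, with whole uterus interactions of 3.13 and -1.06. Moxd1 was 8.78 ± 1.26 higher in luminal epithelium, and in whole uterus it was 7.99 to 34.4 CPM in all 20 libraries. Peg10 differed by 6.11 ± 1.35 (adjusted p = 0.00974), although whole uterus also had a called interaction of 7.46. Without mice 35, 36 and 37 the Peg10 difference was 3.63 (adjusted p = 0.135) and the Hgfac difference 3.30 (adjusted p = 0.0595), and those of Slc16a14, Sp5, Dsc2, Slco2a1 and Ppp2r2c also lost the call, while those of Trim36, Sema6a and Moxd1 were still called.

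Some tissue differences went lower. Npl, which breaks down sialic acid, was 0 to 0.577 CPM in D0.5 control epithelium and 2.18 to 20.7 CPM in knockouts, then 1032, 861, 762 and 644 CPM in D3.5 controls and 98.5 to 383 CPM in knockouts. Its interaction was -6.37 ± 0.76, against -0.99 in whole uterus (difference -5.39 ± 1.02; adjusted p = 0.00254). Retnlg differed by -6.31 ± 1.26 and had a whole uterus interaction of 0.04. Without control 11 of D3.5 epithelium that difference was -5.04 (adjusted p = 0.128). With a term for each mouse (the block), fitted to the 17 animals that gave both tissues, 4 named differences were no longer called. They were those of Slc14a1, a urea transporter gene (4.96; adjusted p = 0.0811), Nr4a3 (-4.13; adjusted p = 0.225), Muc5b, a gel-forming mucin (-8.88; adjusted p = 0.102) and Ppp2r2c, a phosphatase regulatory subunit (5.86; adjusted p = 0.0574). In the same 17 animals without the block these 4 were not called either, nor were those of Hgfac, Peg10, Slc16a14, Sp5 and Dsc2, which were called with it. For Alpl, Clca1, Muc4, Ihh and Socs3 the difference between tissues did not pass the test, which does not show that the tissues act alike. The Alpl difference was 1.38 ± 0.98, with interactions of 9.52 and 8.06.

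**Figure D5:**
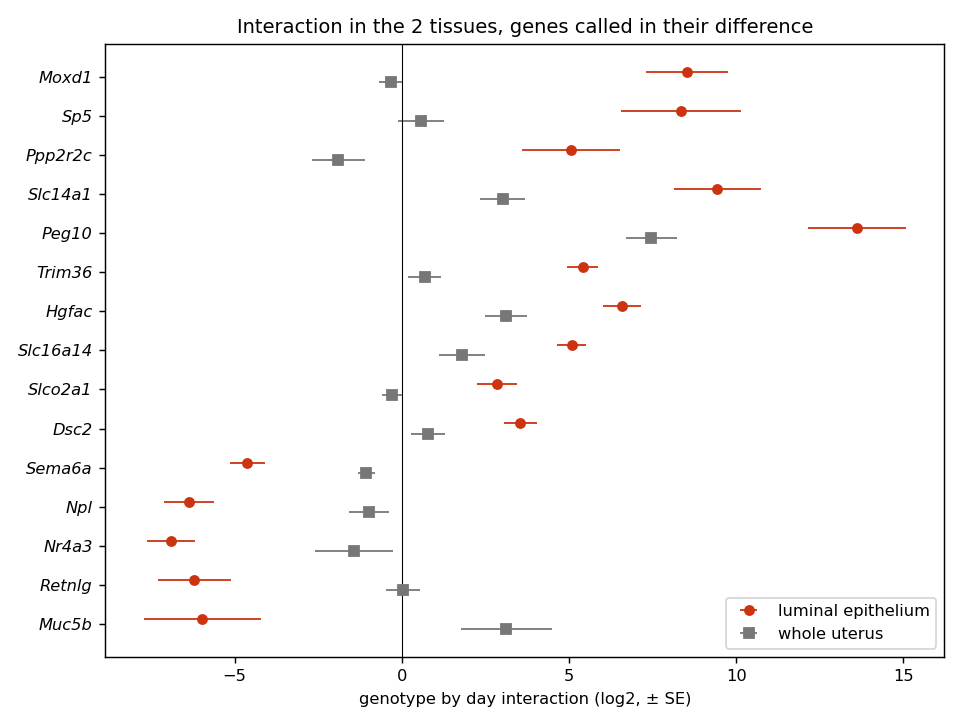
Genotype by day interaction on the log2 scale (± SE) in luminal epithelium (circles) and whole uterus (squares) for the 15 named genes called in the difference between tissues. Trim36 and Moxd1 are near 0 in whole uterus and at 5.41 and 8.52 in luminal epithelium; the value of Sp5, which had no count in D3.5 controls, depends on the fit's prior count.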

How the data were processed

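RNA from 26 luminal epithelium and 20 whole uterus libraries was used; the remaining libraries of the series, from digested uterus, were not needed here. The authors deposited a table of estimated counts and a table of TPM values for 21706 genes, which are not whole numbers. Per the submitters' processing notes, kallisto 0.46.1 and the build GRCm39 were used. The annotation, the summing of transcripts to genes and the sequencing batches are not given in the sources used here. RNA was isolated as 1 batch per tissue, per the labels' protocols, so the isolation batch cannot be told apart from the tissue but is common to all groups of a tissue.

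Estimated counts were rounded to whole numbers, filtered with filterByExpr (minimum count 10, minimum total 15) and scaled by TMM. The 4 groups of a tissue, or the 8 of both, entered 1 fit in edgeR 4.0.16 (R 4.3.3) with its quasi-likelihood F test, and genes with a Benjamini-Hochberg adjusted p under 0.05 are said to be called. The biological coefficient of variation was 0.437 in luminal epithelium and 0.342 in whole uterus. Scripts were tested on simulated data. No 2 replicates agreed within sampling noise (lowest chi-square per degree of freedom 26.6 over 78 pairs of luminal epithelium libraries). Within luminal epithelium no groups share a mouse. Luminal epithelium and whole uterus of 17 mice come from the same animal, by the number in the titles, and their deviations correlated with a median r of 0.268 (-0.141 to 0.390). Alternatives were median-of-ratios size factors, no filter, DESeq2 1.42.0, limma 3.58.1 (voom with sample weights, and log2(TPM + 1) for genes with a mean of at least 1 TPM), a stromal score as covariate, the joint fit, the mouse as a block and leaving out each library. Leaving out mice 35, 36 and 37 together, and dropping the block in mice with both tissues, were chosen after seeing the data.

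The 79 named genes are Esr1, Pgr and Wnt7a, then genes called in the interaction, with at least 10 CPM in one group, more than 3 counts in every group and no predicted name: the 8 highest, the 8 lowest and the 8 with the widest opposite effects. To these were added 6 genes with similar effects, up to 2 members of each of 31 lists (402 genes) and the 4 widest tissue differences each way. Other list members are named as examples chosen after their values were seen. The members and lists were chosen with earlier results of these data known. Promoter sequences come from RefSeq on GRCm38.p6 and were not placed on the build of the files. Some of the named genes and list members are not reported here.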

Additional observations from a re-analysis of the deposited data

Results flagged for a closer look

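Among 308 pairs of a named gene and a luminal epithelium group, 26 had 1 mouse far from the rest by Dixon's criterion. Chance gives this in about 1 in 20 groups. That number of pairs is not independent, since genes share libraries. In the flags of Wfdc16, Muc5b and Mmp8 every other library of the group held 0 CPM. Any count is then flagged, and that rate does not apply to them. Control mouse 1 at D0.5 accounted for 5, with Antxrl high at 18.65 CPM and Gper1 (2.067 CPM), Mcm7 (10.95 CPM), Oasl2 (142.5 CPM) and Oasl1 (48.57 CPM) low. Control mouse 16 at D3.5 was highest for Alpl (15.48 CPM), Wfdc16 (0.4554 CPM), Muc5b (0.3795 CPM) and Car13 (7.513 CPM). Control mouse 11 at D3.5 was highest for the globin genes Hbb-bs (1129 CPM) and Hba-a1 (605.6 CPM) and lowest for Slc26a9 (0.3924 CPM). Other controls were lowest for Nsdhl (5.942 CPM, mouse 15) and Cxcl3 (0.3643 CPM, mouse 7), and highest for Mmp8 (0.4586 CPM, mouse 14).

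Knockout mouse 34 at D3.5 was lowest for Lgr5 (0.8653 CPM), Socs3 (6.363 CPM) and Smtn (13.08 CPM) and highest for Oasl2 (230.4 CPM). Knockout mouse 36 was lowest for Col28a1 (0.1092 CPM) and Npl (98.46 CPM). Single values in other D3.5 knockouts were Slc26a9 at 7.652 CPM in mouse 32, Aqp4 at 63.09 CPM in mouse 31 and Mmp8 at 0.08791 CPM in mouse 35. At D0.5, knockout mouse 21 was highest for Oasl2 (275.6 CPM) and mouse 22 highest for Cd79a (2.699 CPM).

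The interaction differed between luminal epithelium and whole uterus, by the test of that difference in edgeR's joint fit, for 15 named genes. It was higher in luminal epithelium, on the log2 scale, for Moxd1 (8.78), Ppp2r2c (6.87), Slc14a1 (6.34), Peg10 (6.11), Trim36 (4.67), Hgfac (3.39), Slc16a14 (3.24), Slco2a1 (3.09) and Dsc2 (2.71), and for Sp5 (7.95), whose value depends on the prior count because it had no count in the D3.5 controls. It was lower for Muc5b (-9.19), Retnlg (-6.31), Nr4a3 (-5.47), Npl (-5.39) and Sema6a (-3.56).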

How the results depend on the processing

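The luminal epithelium interaction was called for 2275 to 2769 genes when each of its 26 libraries was left out, and for 1814 to 3382 under the other alternatives, and 0 of the shared calls changed direction. On log2(TPM + 1) the 3382 calls were 80.0% higher, against 57.7% in counts, and the median over all genes was 0.36. Of the D3.5 genotype calls, 3940 were made on TPM (3549 higher), 1543 by voom (701 higher) and 1131 without mice 35, 36 and 37. In whole uterus DESeq2 called 519 and limma voom 1029 genes, and leaving out 1 library gave 137 (without D0.5 knockout 25) to 370 (without D0.5 knockout 21). The tissue difference was called for 518 genes by DESeq2 and 555 by voom; with the mouse as replicate block, in mice with both tissues, it was called for 201 (113 among the 250), and without the block in the same mice for 70. The calls of named genes lost with the block are the 4 given; in the same mice the block ended none of the 15 tissue differences. Mitosis genes had 12 calls by DESeq2, 11 on TPM, 13 in the joint fit and 0 by voom or with the stromal covariate. Of 68 called named genes, 44 were called in all their alternatives; over 2311 gene and setting pairs 122 lost the call and 1 reversed (Sprr2d at -0.85 without mice 35, 36 and 37). Named genes lost most often were those under voom (14), the stromal covariate (10) and without mice 35, 36 and 37 (10). Leaving out 1 library lowered the calls to 2 of 5 mucin (D3.5 mice 11, 15, 35 or 36), 5 of 20 junction (11 or 14), 3 of 13 defence (6 or 14), 2 of 14 prostaglandin (3, 6, 24, 27 or 32) and 2 of 12 sterol uptake genes (any of 14 libraries). Among tissue differences, single libraries ended those of Sp5, Dsc2, Nr4a3, Ppp2r2c, Muc5b and Retnlg. Among 11 uncalled genes 58 values changed sign without a call, and 3 became calls (Sox9 with the stromal covariate and without mice 35, 36 and 37, Smtn with the covariate). Genes at a few counts per library, such as Mmp8 and Muc5b at D3.5, limit how finely their interaction is known, and 4 controls at D3.5 limit all of them.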
